A study of Mus musculus with 24 samples.

Results

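Cd44, Tnfrsf12a, Il15, Lrp8, Cp and Krt80 are 6 genes whose transcripts were picked for large rises against control in mouse cardiomyocytes. These cells were targeted for loss of the myocardin-related transcription factors Mrtfa and Mrtfb, alone or with a guide virus against Myocd as well. The 6 are named genes of 1 count table. The genes are 6 of the 23337 in the count table, and all 6 were among the 12281 genes that passed the filter on low counts and were tested. Lrp8 and Krt80 were low outside the triple-targeted group, with group means of 0.764 to 2.16 CPM (read counts scaled to library size). The genes were chosen by the measured differences of DKO and of TKO from Ctrl, which are therefore described here without a test. The other comparisons did not choose them, but each shares libraries with those 2. The genes were collected under the description of rises with Mrtf loss. As a description of the values that chose them, and no test of it, Il15 in DKO was at 3.52 times the control mean. Lrp8 was at 2.37, Cd44 at 1.96 and Cp at 1.93, whereas Krt80 was at 1.43 and Tnfrsf12a at 1.09. The Ctrl mean of Il15 fell between separate clusters of libraries, given below, so its ratio to that mean depends on the low Ctrl libraries. DKO was targeted for Mrtfa and Mrtfb, and Mrtfb transcripts there were still at 0.67 times the Ctrl mean. TKO had the Myocd guide virus in place of the Cre virus of DKO. In TKO against DKO, 5 of the 6 were called higher, beside 4.16% of all genes tested, and Il15 was not. Both groups of that comparison took part in choosing the genes.

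Cd44, Tnfrsf12a and Lrp8 encode cell surface receptors tied to injury. CD44 binds hyaluronan, a sugar polymer of the extracellular matrix, and is linked to the cytoskeleton by ezrin, radixin and moesin; Tnfrsf12a encodes FN14, the receptor for the cytokine TWEAK, which signals through TRAF adaptors and NF-kB; Lrp8 encodes ApoER2, a receptor for reelin and for apolipoproteins. Il15 encodes a cytokine that is presented to natural killer and T cells by its own receptor chain. Cp encodes ceruloplasmin, the copper oxidase that loads iron onto transferrin after export by ferroportin, and Krt80 encodes a type II keratin of epithelia. Mrtfa, Mrtfb and myocardin are coactivators of the serum response factor (SRF), which drives muscle and cytoskeletal genes.

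All 4 groups held heart cardiomyocytes of 4-week-old mice that carried a Cas9 allele at Rosa26 and had received an adeno-associated virus at postnatal day 1. Ctrl was Rosa-Cas9/Cas9 (Rosa-Cas9GFP in the series' design text) with AAV-Cre, and MKO was the same genotype with AAV-Myocd-sgRNA, a virus that brings a guide RNA against Myocd. DKO was Mrfta-/-; Mrtfb-F/F; Rosa-Cas9/Cas9 (the spelling of the labels) with AAV-Cre, and TKO was that genotype with AAV-Myocd-sgRNA. Each group had 6 libraries. The promoter that drives Cre, and whether the guide virus also carries Cre, are not given in the sources used here. Deletion of Mrtfb-F/F in TKO is therefore not given by the labels. MKO differs from Ctrl, and TKO from DKO, in the virus as a whole, guide virus against Cre virus. Cells were freed by Langendorff perfusion, sorted by flow cytometry and sequenced as polyA RNA with a SMART-Seq protocol. Nothing in the labels says that the 6 libraries of a group are separate animals, and p-values then speak only of how much these libraries vary, which may be technical.

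Libraries held 5830185 to 17184517 counts assigned to genes, with DKO 1 the shallowest and TKO 3 the deepest. The transcripts of the targeted genes were read first. Mkl1, the table's name for Mrtfa, fell to 1.40 to 2.77 CPM in DKO and 1.33 to 2.66 in TKO, from 4.81 to 11.3 in Ctrl and 6.39 to 11.9 in MKO. Mkl2, which encodes Mrtfb, was at 26.6 to 39.3 in DKO and 27.5 to 42.5 in TKO, below the 44.8 to 55.9 of Ctrl. Myocd was at 120 to 187 in MKO beside 153 to 234 in Ctrl. In TKO it was at 175 to 323, beside 175 to 242 in DKO. By edgeR's quasi-likelihood test Myocd was higher in TKO against Ctrl, by 0.40 on the log2 scale (adjusted p = 0.0437). Against MKO it was higher by 0.77 (adjusted p = 0.000374), and against DKO it was not called. A count over the whole gene does not read a small lesion made by Cas9. Srf was at 38.3 to 50.9 CPM in TKO, below 52.0 to 105 in DKO and 69.4 to 96.6 in Ctrl. By the same test it was lower in TKO against both (adjusted p = 0.0115 and 6.97e-05). The summed level of 12 cardiomyocyte markers was 109114 to 139154 CPM in DKO and 110339 to 136643 in TKO, beside 139937 to 176682 in Ctrl and 125421 to 154062 in MKO, so DKO and TKO lay below Ctrl without overlap. Myh6, Myl3, Atp2a2 and Ttn were called lower in TKO against Ctrl, and the part of this shift in the members' values was not tested. By sex-linked transcripts, 4 Ctrl, 4 MKO, 1 DKO (DKO 1) and 3 TKO libraries were male. Ctrl 3 and DKO 1 stood apart in several of the values below, and results without them are given where they differ.

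**Figure D1:**
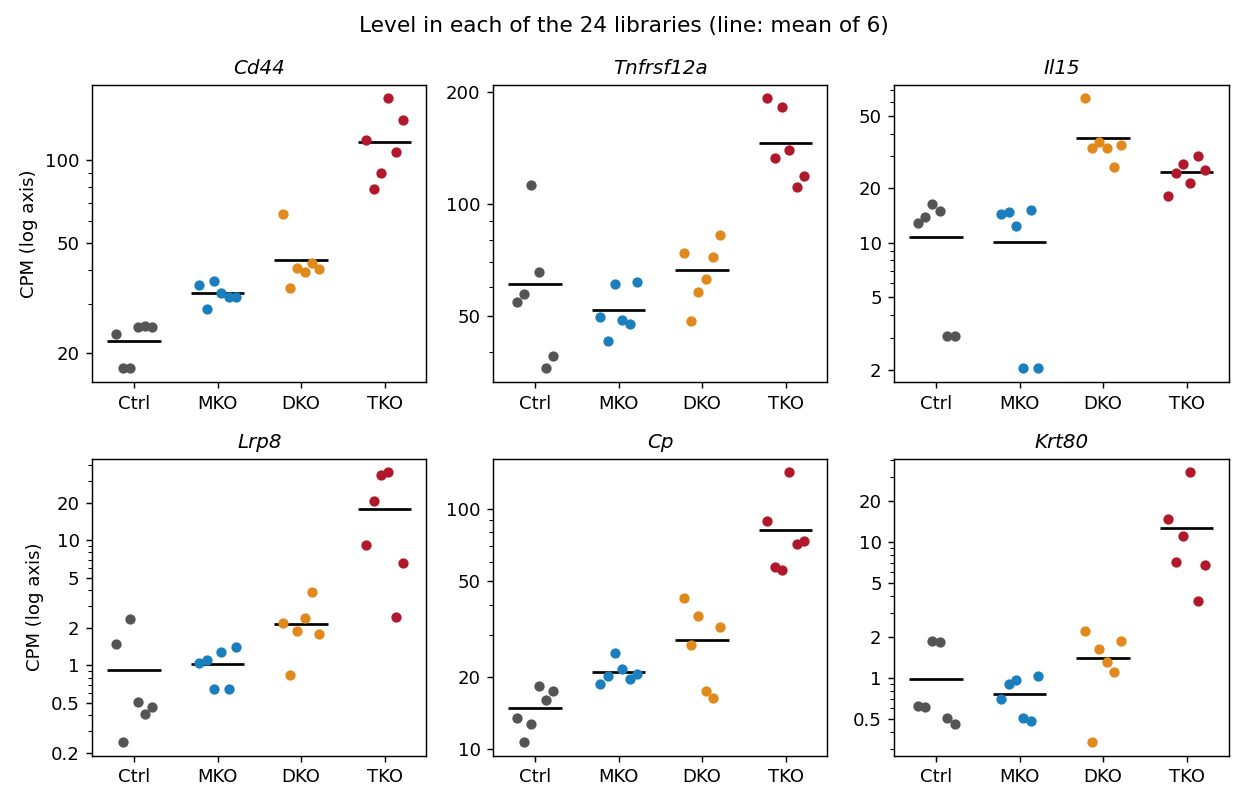
Each point is 1 library, placed by its group (Ctrl, MKO, DKO, TKO; 6 libraries each) on the x axis and its level in CPM on a logarithmic y axis; the line is the mean of 6. The TKO mean is the highest in 5 panels, while in the Il15 panel DKO is highest at 26.3 to 62.5 CPM and 4 Ctrl and MKO libraries lie at 2.03 to 3.05 CPM.

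Promoter sequences are shown for the 3 genes whose RefSeq start in GRCm38.p6 is also the first base of the gene in the count table, because these genes were all called higher in TKO than in MKO and in DKO and their start regions can be compared letter by letter. Each run spans 250 bases before the start to 50 after it, 5′ to 3′ on the gene's strand. RefSeq's table held entries for 4 of the 6 genes, and the Lrp8 entries start 626 to 28694 bases inside the gene of the count table, so they are not printed. Capitals mark letters that match a searched motif.
Cd44, chr2:102901616-102901915, minus strand: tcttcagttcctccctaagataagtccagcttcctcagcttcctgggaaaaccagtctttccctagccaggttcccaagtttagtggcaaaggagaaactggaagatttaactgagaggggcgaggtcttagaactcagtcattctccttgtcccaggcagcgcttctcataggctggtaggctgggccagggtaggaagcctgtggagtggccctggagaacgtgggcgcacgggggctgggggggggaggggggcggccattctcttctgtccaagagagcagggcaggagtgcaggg
Tnfrsf12a, chr17:23677400-23677699, minus strand: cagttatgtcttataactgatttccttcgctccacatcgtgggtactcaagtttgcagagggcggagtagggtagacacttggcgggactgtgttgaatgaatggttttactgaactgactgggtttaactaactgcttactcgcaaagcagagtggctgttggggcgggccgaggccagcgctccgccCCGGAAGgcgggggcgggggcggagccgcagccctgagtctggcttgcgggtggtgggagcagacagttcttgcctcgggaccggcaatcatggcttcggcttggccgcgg
Cp, chr3:19956804-19957103, plus strand: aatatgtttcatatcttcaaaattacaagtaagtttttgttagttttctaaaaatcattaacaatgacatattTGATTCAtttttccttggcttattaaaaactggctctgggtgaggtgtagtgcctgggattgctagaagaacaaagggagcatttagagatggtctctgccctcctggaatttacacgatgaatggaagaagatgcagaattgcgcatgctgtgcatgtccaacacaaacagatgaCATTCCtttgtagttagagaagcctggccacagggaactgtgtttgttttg
In Tnfrsf12a the capitals are an ETS motif, CCGGAAG, at positions -61 to -55, counted from the start base as 0. In Cp the first capitals are an AP-1 motif, TGANTCA, at positions -177 to -171, which reads on both strands. The second are a TEAD motif, GGAATG, on the opposite strand at positions -1 to 4, and it overlaps no other match. Among 32851 RefSeq promoters of the same length, searched on both strands, 8.86% held the ETS motif, 7.81% the AP-1 motif and 14.7% the TEAD motif. The Cd44 window held none of the motifs searched. The CArG box, the letters SRF binds, was found in 1.63% of all promoters and the NF-kB motif in 4.51%, and neither was found in these 3 windows. A match describes letters only, and the absence of one says nothing about a factor.

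Cd44 (chromosome 2, 102811142 to 102901665 in mm10, minus strand, 5653 exonic bases) stepped upward over the groups, from Ctrl to MKO, DKO and TKO. Its level was 17.5, 24.03 and 24.9 CPM (lowest, median, highest library) in Ctrl, with a mean of 22.1 ± 3.61 (SD, n = 6). In MKO it was 28.8, 32.5 and 36.5, with a mean of 32.9 ± 2.75 (SD, n = 6). The 6 MKO libraries all lay above the 6 Ctrl libraries. In DKO it was 34.5, 40.4 and 63.7, mean 43.4 ± 10.3 (SD, n = 6), and in TKO 78.6, 113 and 168, mean 117 ± 32.9 (SD, n = 6). DKO and MKO overlapped, DKO 1 stood above the other 5 DKO libraries, and the lowest TKO library was above every library of the other groups. On the log2 scale, Cd44 was 0.96 ± 0.16 (SE) above Ctrl in DKO and 2.40 ± 0.17 above Ctrl in TKO.

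Tnfrsf12a (chromosome 17, 23675445 to 23677449, minus strand, 965 exonic bases) was highest in TKO and lay near Ctrl in the other groups. Its level was 36.2, 56.0 and 113 CPM in Ctrl, mean 60.9 ± 27.7 (SD, n = 6), and 43.0, 49.3 and 61.8 in MKO, mean 52.0 ± 7.66. In DKO it was 48.5, 67.6 and 82.5, mean 66.4 ± 12.3, and in TKO 111, 137 and 192, mean 146 ± 33.3 (SD, n = 6). Ctrl 3 was the one library outside TKO that reached the TKO range, and the Ctrl, MKO and DKO ranges overlapped. The log2 difference from Ctrl was 0.12 ± 0.21 (SE) in DKO and 1.27 ± 0.21 in TKO, and 0.39 and 1.53 without Ctrl 3. The exons of Tnfrsf12a overlap those of Hcfc1r1 on the other strand, and the library kits do not mark strand, so reads of the shared part cannot be told apart.

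Lrp8 (chromosome 4, 107802259 to 107876840, plus strand, 7677 exonic bases) had the highest ratio of TKO to Ctrl and the widest spread. It was at 0.244, 0.487 and 2.36 CPM in Ctrl, from 2 to 19 counts, and at 0.645, 1.08 and 1.40 in MKO. In DKO it was at 0.843, 2.04 and 3.86, mean 2.16 ± 0.991 (SD, n = 6), and in TKO at 2.44, 14.8 and 35.0, mean 17.8 ± 13.996, from 28 to 568 counts. The highest TKO library was 14.3 times the lowest. TKO 5, the lowest, fell within the DKO range and next to Ctrl 3, while Ctrl, MKO and DKO overlapped one another. The log2 difference from Ctrl was 1.27 ± 0.62 (SE) in DKO and 4.33 ± 0.57 in TKO, and 1.79 and 4.85 without Ctrl 3.

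Il15, the one secreted cytokine of the 6 (chromosome 8, 82331624 to 82402586, minus strand, 1285 exonic bases), was highest in DKO. Its level was 3.05, 13.4 and 16.4 CPM in Ctrl, mean 10.7 ± 6.05 (SD, n = 6), and 2.03, 13.4 and 15.1 in MKO, mean 10.1 ± 6.34. In DKO it was 26.3, 34.1 and 62.5, mean 37.7 ± 12.6, and in TKO 18.1, 24.9 and 30.2, mean 24.4 ± 4.25 (SD, n = 6). Every DKO and TKO library was above every Ctrl and MKO library, the DKO and TKO ranges overlapped, and DKO 1 again stood above the rest of DKO. The Ctrl and MKO libraries fell into separate clusters, with Ctrl 5, Ctrl 6, MKO 4 and MKO 6 at 2.03 to 3.05 CPM and the other 8 at 12.4 to 16.4. The log2 difference from Ctrl was 1.82 ± 0.43 (SE) in DKO and 1.20 ± 0.42 in TKO. These values depend on the low Ctrl libraries, Ctrl 5 and Ctrl 6. Leaving out 1 library, the DKO difference ran from 1.62 without Ctrl 6 to 1.98 without Ctrl 3. The TKO difference was also lowest without Ctrl 6. No fit left out both Ctrl 5 and Ctrl 6.

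The genes whose log2 CPM ran most like that of Il15 over the 24 libraries were Scoc (r = 0.8616), Atg16l2 (r = 0.8386) and Gadd45gip1 (r = 0.828), given as a description, since the points share libraries and depth. Scoc and Gadd45gip1 lie on chromosome 8 as well, 1.10 and 2.50 Mb from Il15, and Atg16l2 lies on chromosome 7. The 4 Ctrl and MKO libraries lowest in Il15 were also the 4 lowest of those 12 in Gadd45gip1, at 18.7 to 19.6 CPM beside 27.8 to 39.7 in the others. In Ptger1, a prostaglandin receptor gene 1.34 Mb away that was chosen after its values were seen, they were again lowest, at 9.26 to 10.7 beside 13.8 to 17.1. In N4bp1, 4.51 Mb away and chosen the same way, they were highest, at 32.5 to 33.7 beside 19.4 to 30.9. The labels name no strain background, and inherited differences near Il15 that came with the Mrtf-mutant line cannot be told apart from Mrtf loss in the Il15 values of DKO and TKO. The DKO and TKO ranges of Gadd45gip1, 35.8 to 44.1 and 21.5 to 44.8, overlapped the other Ctrl and MKO libraries, unlike those of Il15. Those of Ptger1 overlapped them too, at 11.6 to 23.2 and 16.5 to 26.1, but reached higher. N4bp1 was at 14.8 to 22.5 in DKO, which overlapped them. In TKO it was at 13.004 to 16.7, below every Ctrl and MKO library. Il15 was thus not the only gene of this region set apart in TKO. Of 115 tested genes within 10 Mb of Il15, 1 passed the test in DKO against Ctrl, or 0.87%, beside 0.635% of all genes. In TKO against Ctrl, 26 did, or 22.6%, beside 14.1%. Against MKO, 2 passed in DKO, or 1.74% beside 0.79%, and 22 in TKO, or 19.1% beside 13.3%, with N4bp1 among them in both.

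**Figure D2:**
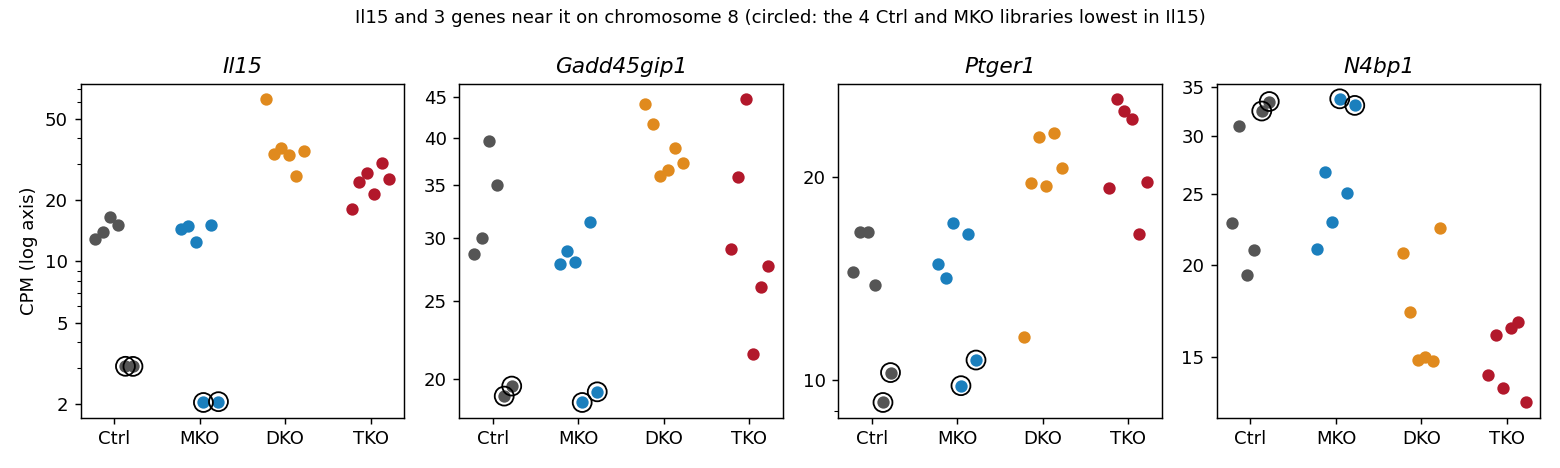
Points are single libraries by group on the x axis, with the level of Il15 and 3 genes near it on chromosome 8 in CPM on a logarithmic y axis; circles mark the 4 Ctrl and MKO libraries lowest in Il15. The circled libraries are also lowest of the 12 in Gadd45gip1 and Ptger1 and highest in N4bp1.

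Cp (chromosome 3, 19957054 to 20007609, plus strand, 4993 exonic bases) followed the order of Cd44. It was at 10.7, 14.8 and 18.3 CPM in Ctrl, mean 14.8 ± 2.94 (SD, n = 6), and at 18.7, 20.4 and 25.2 in MKO, mean 20.998 ± 2.26. In DKO it was at 16.3, 29.7 and 42.5, mean 28.6 ± 10.3, and in TKO at 55.6, 72.3 and 142, mean 81.3 ± 32.1 (SD, n = 6). MKO lay just above Ctrl with no overlap, DKO spanned from the Ctrl range to above MKO, and TKO was above all others. The log2 difference from Ctrl was 0.93 ± 0.23 (SE) in DKO and 2.45 ± 0.23 in TKO.

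Krt80 (chromosome 15, 101349571 to 101370125, minus strand, 1774 exonic bases) was close to its detection limit outside TKO. It was at 0.462, 0.613 and 1.87 CPM in Ctrl, from 5 to 18 counts, at 0.485, 0.802 and 1.02 in MKO, and at 0.337, 1.48 and 2.20 in DKO. In TKO it was at 3.66, 9.11 and 32.4, mean 12.6 ± 10.4 (SD, n = 6), from 42 to 341 counts. The highest TKO library was 8.86 times the lowest, yet all 6 were above the 18 libraries of the other groups, which overlapped one another. The log2 difference from Ctrl was 0.48 ± 0.53 (SE) in DKO and 3.68 ± 0.48 in TKO. Krt80 lies 20.3 Mb from Mkl1 on the same chromosome.

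In DKO against Ctrl the libraries did not overlap for 2 of the 6 genes, Cd44 and Il15, as for 0.391% of all genes, and in TKO against Ctrl for all but Tnfrsf12a, as for 4.76%; since these comparisons chose the genes, nothing is read from those counts.

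Set per length of exon (RPKM), the order of the 6 genes changed between the groups. In Ctrl the means were 63.2 for Tnfrsf12a, 8.34 for Il15, 3.92 for Cd44, 2.97 for Cp, 0.555 for Krt80 and 0.119 for Lrp8. In TKO they were 152 for Tnfrsf12a, 20.7 for Cd44, 19.004 for Il15, 16.3 for Cp, 7.11 for Krt80 and 2.32 for Lrp8. Tnfrsf12a was thus the most abundant in both groups, and Cd44 and Il15 were close together in TKO.

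In TKO against MKO, which asks what the Mrtf-mutant genotype adds where both groups received the guide virus, all 6 genes were higher. For all 6 the 6 TKO libraries lay above the 6 MKO libraries. Of all genes tested, 6.48% were called higher (edgeR's quasi-likelihood test with Benjamini-Hochberg adjustment), and 4.64% were higher without overlap. TKO libraries also served in choosing the genes, so their high level there is not independent of the choice. The log2 differences were 4.13 ± 0.55 (SE) for Lrp8, 4.03 ± 0.48 for Krt80, 1.95 ± 0.22 for Cp, 1.83 ± 0.16 for Cd44, 1.49 ± 0.21 for Tnfrsf12a and 1.27 ± 0.42 for Il15. The adjusted p was 6.02e-08 for Cd44, 1.91e-06 for Cp, 3.05e-06 for Krt80, 1.33e-05 for Lrp8 and 2.6e-05 for Tnfrsf12a. The Il15 call was near the threshold, with adjusted p = 0.0454. It was lost without any one of 14 libraries (Ctrl 1, MKO 3, 4 and 6, DKO 2, 3, 4 and 6, and each TKO library), at log2 differences of 1.06 to 1.35 and adjusted p of 0.0507 to 0.0915.

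TKO against DKO sets the Myocd guide virus against the Cre virus in the Mrtf-mutant genotype. Here 5 of the 6 genes were called higher, beside 4.16% of all genes tested. Both groups took part in choosing the genes. Krt80 was higher by 3.19 ± 0.46 on the log2 scale (SE; adjusted p = 0.000102) and Lrp8 by 3.06 ± 0.51 (adjusted p = 0.000482). Cp was higher by 1.52 ± 0.22 (adjusted p = 0.000127), Cd44 by 1.44 ± 0.16 (adjusted p = 3.27e-06) and Tnfrsf12a by 1.14 ± 0.21 (adjusted p = 0.00105). Libraries did not overlap for Cd44, Tnfrsf12a, Cp and Krt80, which was so for 2.55% of all genes, and Lrp8 overlapped through TKO 5. Il15 differed by -0.62 ± 0.40, with a 95% interval from -1.41 to 0.18 and adjusted p = 0.354. In the authors' deposited table for this comparison Il15 had a log2 difference of -0.42 with adjusted p = 0.0241. Without Ctrl 3 and DKO 1 the Il15 difference in the edgeR fit was -0.41, close to the deposited value. Whether the deposited comparison left out libraries was not tested. These calls of the other 5 genes were kept in each of the 24 fits without 1 library and in the 7 other settings tried.

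In DKO against MKO, Il15 alone was called, higher by 1.88 ± 0.42 on the log2 scale (SE; adjusted p = 0.0292), beside 0.301% of all genes called higher. It was also the only one of the 6 whose DKO and MKO libraries did not overlap, as for 0.798% of all genes. DKO libraries also served in choosing the genes, and the MKO mean of Il15 was close to that of Ctrl. The call and the lack of overlap are therefore not independent of the choice. The Il15 call was lost without MKO 3, MKO 4, MKO 6 or DKO 2, at adjusted p of 0.0504 to 0.0686, and was 0.0994 with only these 2 groups in the fit. The other 5 differed by 0.35 to 1.07 with adjusted p from 0.261 to 0.427. Intervals were wide for the scarce genes: the 95% interval for Lrp8 ran from -0.08 to 2.21 and that for Krt80 from -0.21 to 1.88.

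In MKO against Ctrl, where the Myocd guide virus acted on intact Mrtf genes, none of the 6 genes passed the test with edgeR or with DESeq2, and 2 had an unadjusted p under 0.05. In this comparison 0% of the 12281 genes passed by edgeR's quasi-likelihood test, 762 had an unadjusted p under 0.05, and DESeq2 called 1. Cd44 was higher by 0.57 ± 0.16 on the log2 scale (SE; unadjusted p = 0.00171, adjusted p = 0.698) and Cp by 0.50 ± 0.23 (unadjusted p = 0.0383, adjusted p = 0.772), and for both the libraries did not overlap, as for 0.318% of all genes. Ctrl libraries also served in choosing the genes, so these values are not independent of the choice. The authors' deposited table gave Cd44 0.49 with adjusted p = 0.0253 and Cp 0.44 with adjusted p = 0.397. Without Ctrl 3 and DKO 1 the edgeR fit gave 0.49 for Cd44 and 0.44 for Cp as well. Whether the deposited comparison left out libraries was not tested. The log2 differences were -0.23 ± 0.21 for Tnfrsf12a, -0.07 ± 0.43 for Il15, 0.20 ± 0.66 for Lrp8 and -0.35 ± 0.56 for Krt80, and those of Tnfrsf12a and Il15 turned positive, at 0.03 and 0.09, without Ctrl 3 and DKO 1. Fibroblast, endothelial, leukocyte, and epicardial and epithelial markers had higher median sums in MKO than in Ctrl, with ranges that overlapped. The cardiomyocyte, the smooth muscle and pericyte, and the Schwann and neuronal markers had lower ones. For smooth muscle and pericyte the sum and the single genes differed in direction: the median log2 ratio of the 10 markers tested was 0.63. The summed level of 12 fibroblast markers was 447 to 1229 CPM in MKO and 174 to 772 in Ctrl, and that of 19 leukocyte markers was 8.45 to 36.4 and 6.47 to 17.4. Of these markers 6 of 11 and 7 of 8 tested had an unadjusted p under 0.05, with none called by either tool, and their part in the Cd44 and Cp values was not tested.

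**Figure D3:**
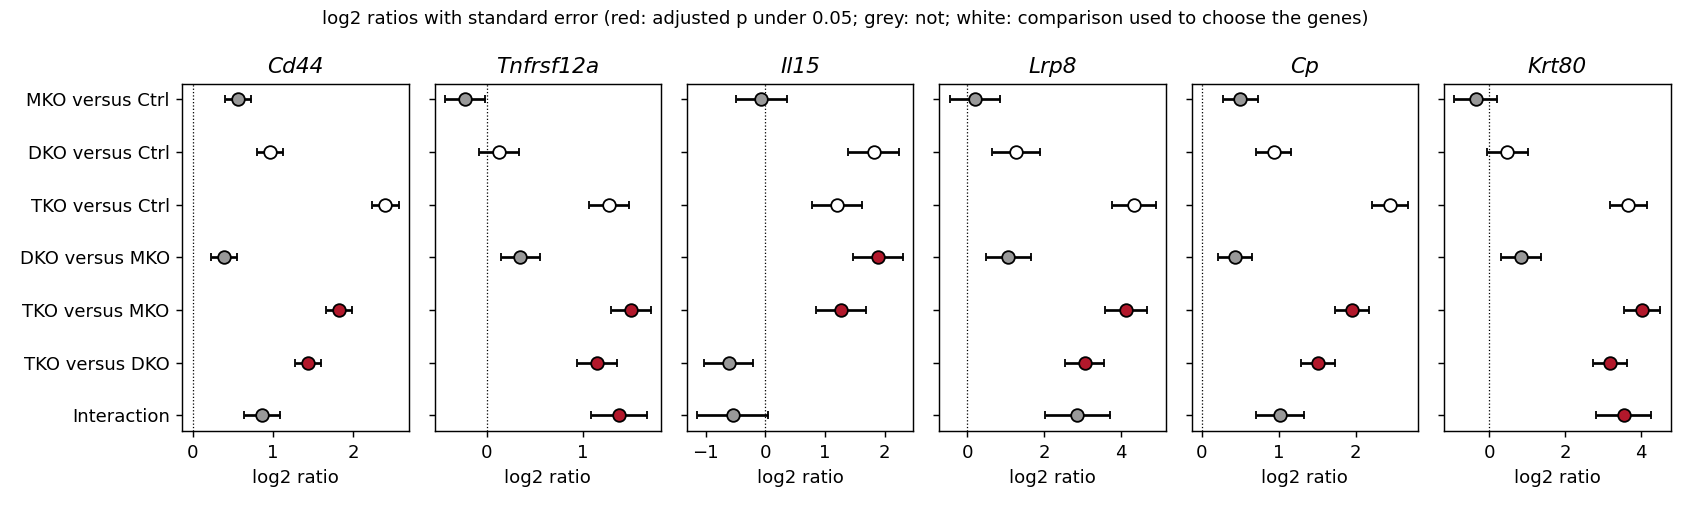
Points are log2 ratios of each gene in 7 comparisons (y axis) and bars are standard errors; red points passed an adjusted p of 0.05, grey ones did not, and white ones belong to the comparisons that chose the genes and carry no test. The TKO versus DKO points are red for 5 genes and grey, below 0, for Il15, while the DKO versus MKO point is red for Il15 only.

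The interaction asks whether the effect of the guide virus differed between the genotypes, as TKO minus DKO less MKO minus Ctrl. It was called for Krt80, at 3.55 ± 0.73 on the log2 scale (SE; adjusted p = 0.031), and for Tnfrsf12a, at 1.37 ± 0.29 (adjusted p = 0.0346), beside 0.399% of all genes called positive. All 4 groups enter it, so it is not independent of the choice. Cd44 was at 0.87 ± 0.23 (adjusted p = 0.0887), Cp at 1.02 ± 0.32 (adjusted p = 0.16) and Lrp8 at 2.86 ± 0.85 (adjusted p = 0.141). Il15 was at -0.55 ± 0.59 (adjusted p = 0.768). The calls rested on single libraries: that of Krt80 was lost without Ctrl 3, Ctrl 4, MKO 1, MKO 2 or DKO 2, at adjusted p of 0.0531 to 0.0732. That of Tnfrsf12a was lost without Ctrl 4, MKO 1, 2, 4 or 5, DKO 2, 3 or 4, or TKO 1, 3 or 4, at adjusted p of 0.0502 to 0.0772. Without Ctrl 2, 5 of the 6 genes were called, among them Cd44 (without DKO 1 or TKO 2 as well), Cp and Lrp8.

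Within TKO the genes did not keep step from library to library. TKO 4 had the highest Cd44, Cp, Lrp8 and Krt80, at 7.59, 9.58, 38.4 and 32.9 times the Ctrl mean. TKO 5 had the lowest Lrp8, Krt80 and Tnfrsf12a, at 2.68, 3.72 and 1.82 times, yet the highest Il15, at 2.82 times. TKO 3 had Lrp8 at 36.6 times the Ctrl mean and Cp at 3.75, the lowest Cp of the group. Il15 ran from 1.69 to 2.82 times the Ctrl mean, the narrowest range of the 6 beside Tnfrsf12a, at 1.82 to 3.15.

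**Figure D4:**
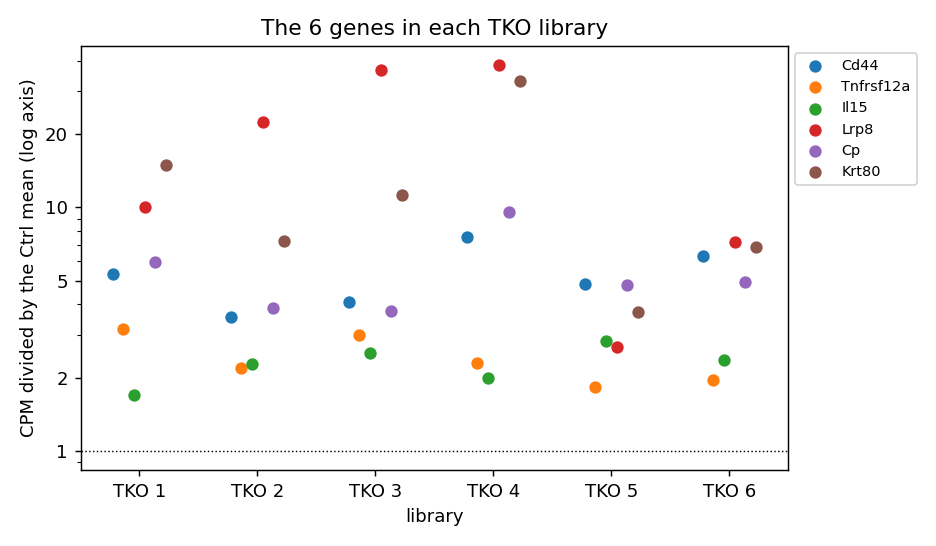
The x axis gives the 6 TKO libraries and the logarithmic y axis the CPM of each gene divided by its Ctrl mean; colours are genes and the dotted line is 1. Lrp8 and Krt80 range from 2.68 to 38.4 and from 3.72 to 32.9, while Il15 and Tnfrsf12a stay between 1.69 and 3.15.

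The levels in TKO were set beside markers of other cells, whose part in the members' values was not tested. In bulk samples, fewer cells of a type and less RNA per cell cannot be told apart. The summed level of 19 leukocyte markers was 6.47 to 17.4 CPM in Ctrl, 10.5 to 18.9 in DKO and 12.6 to 20.1 in TKO. The median log2 ratio of the 8 leukocyte markers tested was 0.71 in TKO against Ctrl and -0.03 in TKO against DKO, and none of the 8 was called in TKO against DKO by edgeR's quasi-likelihood test, by DESeq2 or at an unadjusted p under 0.05. Of the leukocyte markers, S100a9 and Nkg7 were at 0 in all Ctrl libraries, Nkg7 in all DKO libraries, and Cd3e and Nkg7 in all TKO libraries. S100a9 was thus at 0 throughout Ctrl but not throughout TKO, and Cd3e the reverse. None of these markers was at 0 in all MKO libraries. The 12 fibroblast markers summed to 146 to 793 CPM in DKO and 326 to 426 in TKO, the 13 endothelial markers to 290 to 915 and 173 to 695, and the 11 smooth muscle and pericyte markers to 458 to 837 and 537 to 719. The smooth muscle and pericyte sums were higher without overlap in Ctrl, at 1211 to 1655, and in MKO, at 1137 to 1510. Of 10 of these markers tested, 7 were called lower and 1 higher in TKO against MKO, beside 6.86% and 6.48% of all genes. In TKO against Ctrl 1 was called lower and 1 higher, beside 14.1% of all genes called either way. Of 11 epicardial and epithelial markers, the sum was 9.33 to 46.3 CPM in Ctrl and 13.3 to 33.4 in TKO, and Epcam and Cdh1, the defining epithelial markers, were at 0 in all MKO and all TKO libraries. Krt8 of the same list was called higher in TKO against MKO, by 1.49 ± 0.40 (SE; adjusted p = 0.0141), and against Ctrl, by 1.85 ± 0.42 (adjusted p = 0.00348). The 10 Schwann and neuronal markers summed to 13.4 to 19.9 CPM in Ctrl and 11.6 to 17.1 in MKO, below the 19.96 to 30.8 of DKO and the 21.2 to 40.4 of TKO, and Uchl1, 1 of the 2 tested, was called higher in TKO against Ctrl and against MKO.

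Partners and pathway genes of the 6 were read from 8 lists of 202 entries, of which 135 distinct genes were tested. Among 18 tested hyaluronan and CD44 genes, 4 rose and none fell in TKO against DKO, beside 4.16% of all genes called higher and 2.22% called lower, with a list median of 0.06 and a median over all genes of -0.04. They were Tlr4, the endotoxin receptor that also responds to hyaluronan fragments, by 1.58 ± 0.20 (SE; adjusted p = 1.62e-05), Ezr, the linker ezrin, by 0.55 ± 0.10 (adjusted p = 0.000749), Tlr2 by 0.92 ± 0.22 (adjusted p = 0.0134) and Msn, the linker moesin, by 0.50 ± 0.13 (adjusted p = 0.0193). Tlr4 reached 29.0 to 50.4 CPM in TKO, and stood there apart from the 5.60 to 12.8 of Ctrl, the 9.47 to 15.1 of MKO and the 6.59 to 17.8 of DKO. Its interaction was 1.41 ± 0.28 (adjusted p = 0.0264). Of the hyaluronan synthases, Has1 and Has2 were too low to test, and Has3 was at 0.399 to 2.19 CPM in DKO and 0.167 to 0.821 in TKO (adjusted p = 0.0604).

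None of 20 tested TWEAK and FN14 genes was called in TKO against DKO by edgeR's quasi-likelihood test, with 4 at an unadjusted p under 0.05 and 1 called by DESeq2. In TKO against MKO 4 rose and none fell, beside 6.48% of all genes called higher and 6.86% lower, led by Fbxo32, the muscle ubiquitin ligase atrogin-1, by 1.05 ± 0.17 (SE; adjusted p = 0.000161), with Traf2, Chuk and Nfkb2 at 0.31 to 0.38. The ligand itself, Tnfsf12, was at mean levels of 0.370 to 0.599 CPM, too low to test, and its exons overlap BC096441. Among 14 other TNF receptor genes tested, Eda2r, the receptor for ectodysplasin A2, was the only one called in TKO against DKO, by 0.86 ± 0.26 (adjusted p = 0.0437). A count of 1 is close to the 4.16% of all genes called higher in that comparison.

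No receptor gene of Il15 that was tested was called higher in TKO. Il15ra, the chain that presents the cytokine, was at 25.4 to 39.4 CPM in MKO and 25.8 to 35.2 in TKO, beside 33.4 to 45.8 in Ctrl and 32.6 to 46.3 in DKO, and the 4 ranges overlapped. It was at -0.36 ± 0.11 in TKO against DKO (SE; adjusted p = 0.0584). Il2rb, the signalling chain, was at most 0.570 CPM in any library and was not tested. Of 10 tested genes of this list, none was called in TKO against DKO by edgeR's quasi-likelihood test, with 4 at an unadjusted p under 0.05 and 2 called by DESeq2. In the same list 2 fell in TKO against MKO, beside 6.86% of all genes called lower: Il2rg, the common gamma chain, by 1.52 on the log2 scale (adjusted p = 0.00682) and its kinase Jak3, by 0.87 (adjusted p = 0.0209). The endothelial markers fell in that comparison too, 6 of 13 tested, and their part in these values was not tested.

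The lists that follow are read in TKO against DKO, where 4.16% of all genes were called higher and 2.22% lower, and counts as small as 1 of a list are close to these shares. Among 24 tested reelin and Lrp8 genes, 3 rose and 1 fell. Clu, which encodes the apolipoprotein clusterin, rose by 1.21 ± 0.29 (SE; adjusted p = 0.0108), from 262 to 908 CPM in DKO to 562 to 2099 in TKO, and DKO 1 was the highest DKO library. Pafah1b2 rose by 0.32, and Lrp4 fell by 0.98 (adjusted p = 0.0163). Reln, the ligand, was at 0.282 to 1.34 CPM in TKO, Dab1, the adaptor, was at most 0.102 CPM in any library, and Vldlr, the related receptor, was at 335 to 390 CPM in Ctrl and 259 to 358 in TKO with no call. Among 22 tested iron and copper genes, Hmox1, heme oxygenase, rose by 1.04 ± 0.31 (adjusted p = 0.0397) and Slc40a1, the iron exporter ferroportin, fell by 0.53 on the log2 scale (adjusted p = 0.044). Heph, the other multicopper oxidase of iron export, was at 3.09 to 8.31 CPM in DKO and 3.87 to 11.3 in TKO with no call. Among 16 tested intermediate filament genes, Lmna rose by 0.50, Dsp by 0.38 and Synm by 1.01, and none fell. The keratins Krt8, Krt18 and Krt19 were not called in TKO against DKO, at differences of 0.87, 1.03 and -0.57, although Krt8 was called in TKO against MKO, as given above. Of 11 acute phase genes tested, Lifr fell by 0.47 (adjusted p = 0.00196) and none rose.

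**Figure D5:**
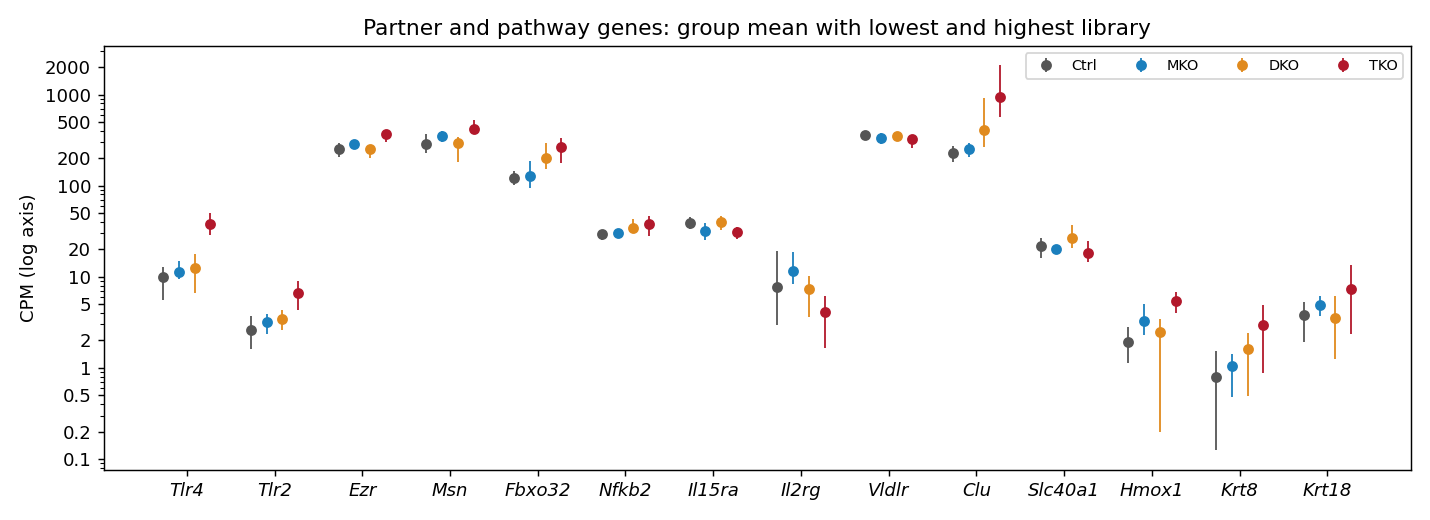
Points are group means and bars run from the lowest to the highest of 6 libraries, in CPM on a logarithmic y axis, for 14 partner and pathway genes on the x axis. Tlr4 is set apart in TKO, at 29.0 to 50.4 CPM, while Il15ra and Vldlr overlap across the groups.

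The genes that ran most like the other members over the 24 libraries were listed in the same way, as a description. For Cd44 they were Cp (r = 0.9606), Etv5 (r = 0.9589) and 4930513N10Rik (r = 0.949), and for Cp they were Cd44, Etv5 (r = 0.9204) and Clu (r = 0.9164). Etv5, an ETS transcription factor, reached 80.8 to 165 CPM in TKO, over 20.9 to 34.2 in DKO, 18.1 to 29.96 in MKO and 15.8 to 18.3 in Ctrl, the same order of groups as Cd44. For Tnfrsf12a they were Cnksr1 (r = 0.9223), Krt80 (r = 0.9181) and Adamtsl5 (r = 0.9098), and for Krt80 they were Fhl1 (r = 0.9572), Popdc3 (r = 0.9325) and Cnksr1. Lrp8 ran most like Sprr1a (r = 0.927), Ankrd1 (r = 0.9227) and 1500009L16Rik (r = 0.9222). Ankrd1, a stretch-responsive cardiac ankyrin repeat gene, was at 384 to 796 CPM in Ctrl and 972 to 3454 in TKO. Sprr1a, a small proline-rich protein gene, was at 0 to 0.249 CPM in Ctrl and 0.871 to 4.28 in TKO.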

How the data were processed

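The authors deposited a table of raw counts per gene for 24 libraries and tables of their own comparisons, with log2 fold changes, standard errors and p-values. STAR, featureCounts, DESeq2 and mm10 are named in the submitters' processing notes, with no versions. The authors' deposited log2 values and adjusted p-values are quoted only where named. The 6 genes and the pathway lists were chosen with earlier results of these data known.

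Counts were scaled by TMM and filtered (filterByExpr, minimum count 10, 12281 of 23337 genes kept). One edgeR 4.0.16 quasi-likelihood fit (R 4.3.3) held all 24 libraries with a coefficient per group. Two-sided p-values were Benjamini-Hochberg adjusted over all genes tested, with a threshold of 0.05. SE are standard errors of the log2 ratio, and 95% intervals are normal. CPM used effective library sizes, RPKM divided them by kb of exon, and r used log2 CPM with a prior count of 2. Alternatives were DESeq2 1.42.0, RLE size factors, no filter, a replicate block, only the compared groups, 22 libraries (without Ctrl 3 and DKO 1), a sex covariate and leaving out each library. Scripts were tested on simulated data. No pair of libraries within a group agreed within sampling noise (chi-square per gene 6.83 to 112).

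Named were the 6 genes, fixed partners (ligands, receptors, Has, Heph, Slc40a1, keratins), up to 4 called genes per list with the smallest adjusted p, and the 3 genes most correlated with each of the 6; other names are marked in the text. Neither protein sequences nor promoters of Il15 and Krt80 were used here. A called gene of the lists is not reported here by name.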

Additional observations from a re-analysis of the deposited data

Results flagged for a closer look

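Of 24 group values of the 6 genes examined for a library far from the other 5 of its group, 2 stood out, and chance gives about 1 in 20. Both were in DKO 1, the shallowest library: Cd44 was at 63.7 CPM there, beside 34.5 to 42.3 in the other DKO libraries, and Il15 was at 62.5 CPM, beside 26.3 to 36.1. DKO 1 was also the only male DKO library by sex-linked transcripts. The part of depth and of sex in these values was not tested. Without DKO 1 the Cd44 difference of DKO from Ctrl was 0.82 on the log2 scale in place of 0.96.

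The effect of the Myocd guide virus differed between the genotypes by the interaction test for Tnfrsf12a, by 1.37 on the log2 scale, and for Krt80, by 3.55. DKO, TKO and Ctrl, by whose values the genes were chosen, enter this test, so it is not independent of the choice. The losses of these calls when 1 library is left out are given with the interaction above.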

How the results depend on the processing

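Of the 6 genes, 0 were called in MKO against Ctrl, 5 in TKO against DKO and 6 in TKO against MKO under each of the 7 settings other than leaving out 1 library. In DKO against MKO, 1 became 0 with only the 2 groups in the fit. In the interaction, 2 became 4 with DESeq2, which added Cd44 (0.87, adjusted p = 0.0326) and Lrp8 (2.88, adjusted p = 0.0173). Leaving out each library gave 0 to 0, 5 to 5, 5 to 6, 0 to 1 and 0 to 5 calls in these 5 comparisons. The median log2 ratio of the 6 genes ran from 0.80 to 1.02 in DKO against Ctrl and from 2.24 to 2.51 in TKO against Ctrl when 1 library was left out, beside 0.95 and 2.42. Pathway genes called in TKO against Ctrl were 25, 39 with 22 libraries, and 19 to 41 without 1 library, the highest without DKO 1.

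In MKO against Ctrl, Tnfrsf12a turned to 0.026 and Il15 to 0.087 with 22 libraries. Leaving out 1 library, Tnfrsf12a ran from -0.35 to 0.027, the highest without Ctrl 3, and Il15 from -0.28 to 0.14, positive without Ctrl 2, 3 or 4, MKO 4 or MKO 6. The adjusted p was at least 0.636 in all of these.

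The main fit did not pair libraries by replicate number. Same-number correlations ran from -0.22 to 0.64 (median 0.07 over 36 pairs, -0.02 for other numbers), which does not settle whether the numbers pair the libraries. With the replicate block, the interaction called 175 genes in place of 57, Cd44 among them (0.83, adjusted p = 0.0312), and no other call on the 6 genes changed.

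Counts over all genes moved by more than 1.5 times. The interaction gave 187 with DESeq2, 130 with 22 libraries, 99 with the sex covariate and 14 to 585 without 1 library, the highest without Ctrl 2. With 22 libraries Cd44 was called in it at 1.09 (adjusted p = 0.0146). TKO against DKO gave 784, 269 with only the 2 groups, 1239 with 22 libraries and 1233 with the sex covariate. TKO against MKO gave 1639, 2581 with 2 groups and 2892 with 22 libraries. DKO against MKO gave 97, 48 with 2 groups, 243 with DESeq2 and 366 with the sex covariate. DKO against Ctrl gave 78, 43 with 2 groups, 162 with DESeq2 and 187 with the sex covariate. TKO against Ctrl gave 1734 and 2627 with 22 libraries. Leaving out 1 library gave 495 to 1100 in TKO against DKO (lowest without TKO 4), 1184 to 2725 in TKO against MKO, 1403 to 2808 in TKO against Ctrl and 55 to 124 in DKO against Ctrl (these 3 highest without DKO 1), and 53 to 128 in DKO against MKO (53 to 64 without MKO 3, MKO 4, MKO 6 or DKO 2). Where a cause is not named, it was not tested. Lrp8 and Krt80, with as few as 2 and 4 counts in a library, are limited by depth.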

Other observations

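The Il15 levels of the 12 Ctrl and MKO libraries were 12.8, 13.9, 16.4, 15.03, 3.05 and 3.05 CPM in Ctrl 1 to 6 and 14.3, 14.9, 12.4, 2.03, 15.1 and 2.05 in MKO 1 to 6. This description was added after the values were seen. Among 81 tested genes within 5 Mb of Il15, 4 had the same 4 libraries lowest of the 12 and 2 had them highest, or 7.41%. Among the 12199 other tested genes, 125 and 109 did, or 1.92%. Beside the genes already named, those near Il15 were D8Ertd738e and Dhps, lowest in the 4 libraries, and Usp38, highest in them. All 12 libraries carry the same genotype label, no label gives a strain background, and the cause of the split was not tested.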
